A study of Mus musculus with 3 samples.

Results

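The Ly49 receptor genes Klra1, Klra2, Klra3, Klra4, Klra5, Klra7, Klra8, Klra9, Klra10 and Klra17 were examined for binding of Runx3 and for H3K4me1 in unstimulated natural killer (NK) cells. They were taken by gene symbol from an annotation of the mouse genome build mm9, in which all 10 were found among 22367 protein-coding genes. A Runx3-bound region (here a peak) or an H3K4me1 region was assigned to a gene when it shared at least 1 base with the gene body extended by 20 kb on either side, which is called the gene's window. The windows overlapped each other and merged into 5 stretches of 561.0 kb in all.

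The data came from freshly isolated (resting) splenic NK cells of wild-type ICR mice, an outbred stock, whose age and sex are not given in the sources used here. Chromatin was precipitated with a polyclonal antibody made in-house against the transcription factor Runx3, with a monoclonal antibody against histone H3 monomethylated at lysine 4 (H3K4me1, a mark of enhancers and of promoter flanks), or with non-immune rabbit serum (NIS) as the control. There was 1 sample of each, and no replicate lists, so no spread between replicates and no test between groups could be given. The deposited lists held 15524 Runx3 peaks and 49902 H3K4me1 regions as positions only, with neither heights nor read counts, so the depth behind a region is unknown.

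The Ly49 receptors are lectin-like receptors of NK cells that bind class I molecules of the major histocompatibility complex. Most of them carry an inhibitory motif and restrain the cell through phosphatases, whereas Ly49D (Klra4) and Ly49H (Klra8) lack it and activate the cell through the adaptor DAP12. Each NK cell expresses only some of the genes, and several of them have an upstream promoter beside the one next to the coding exons. The genes arose by duplication, so long stretches are nearly identical between them, and their number differs between mouse strains. The reference genome is of another strain than the cells, so positions here are those of the reference copies.

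All 10 genes lay on the minus strand of chromosome 6. Those other than Klra2 formed a cluster of 555.7 kb, from Klra17 at chr6:129781172-129826690 to Klra1 at chr6:130313936-130336892, and Klra2 lay a further 832.3 kb away at chr6:131169241-131197380. NK identity was checked on marker genes with 5 kb on either side. H3K4me1 covered 57.4 to 92.9% of those windows for 8 of 8 NK cell genes, each with a Runx3 peak. It covered 0 to 58.6% (median 11.3%) for 6 T cell genes, 2 of them with a Runx3 peak, 0 to 35.3% (median 8.46%) for 4 B cell genes, 2 with a peak, and 0 to 41.3% (median 5.07%) for 5 myeloid cell genes, 1 with a peak. The value of Cd3g, 58.6%, was above the lowest NK cell gene, Itga2, and Cd28 and Itgam had 4 peaks each, whereas Cd8a, Ms4a1, Lyz2 and Emr1 had neither peak nor H3K4me1. The part of such cells in the Ly49 values was not tested.

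Most Runx3 peaks of the cluster fell on repeated versions of a few sequences, which are shown first because the results turn on them. Copies were searched with each peak as the query, at an identity of at least 80% over at least 50% of the peak. By this rule 13 of the 17 Runx3 peaks in the windows had a similar sequence elsewhere in the windows. Peaks joined by such matches fell into groups A and B. Copies of at least 800 bases are called full-length and shorter ones partial, and the group A copies were all full-length. In addition, 2 further peaks at Klra4 had copies that carried no peak.

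Group A was a stretch of about 1 kb upstream of 7 genes, Klra5, Klra6, Klra9, Klra7, Klra10, Klra3 and Klra1, all of which encode inhibitory receptors (Klra6, or Ly49F, is a neighbouring gene outside the list of 10). Aligned pairs of these copies were 68.6 to 94.4% identical, with a median of 84.8%. A Runx3 peak lay on 6 of the 7, the exception being Klra3, and all 7 touched an H3K4me1 region. The sequence TGTGGT, a form of the RUNX binding consensus TGNGGN (C or T at each N), stood at the same place of the alignment in 7 of 7 copies, and it was the only one of 7 positions with a RUNX match that all copies kept. The 60 bases around it are printed 5′ to 3′ on the minus strand of mm9, with the match in capitals. None of these stretches lies in an annotated exon.
Klra5, chr6:129867738-129867797: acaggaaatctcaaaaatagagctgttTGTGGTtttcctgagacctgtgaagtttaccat
Klra6, chr6:129981801-129981860: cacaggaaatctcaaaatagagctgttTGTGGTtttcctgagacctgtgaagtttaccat
Klra9, chr6:130147735-130147794: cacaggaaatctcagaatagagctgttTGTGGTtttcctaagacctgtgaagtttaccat
Klra7, chr6:130187889-130187948: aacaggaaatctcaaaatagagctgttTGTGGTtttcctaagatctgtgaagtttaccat
Klra10, chr6:130238348-130238407: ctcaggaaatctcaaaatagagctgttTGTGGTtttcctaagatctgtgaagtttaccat
Klra3, chr6:130292272-130292331: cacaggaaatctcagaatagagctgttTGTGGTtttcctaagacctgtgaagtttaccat
Klra1, chr6:130337061-130337120: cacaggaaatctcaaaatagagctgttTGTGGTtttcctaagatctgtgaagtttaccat

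The copies of Klra9 and Klra3 were identical over these 60 bases, which left 6 distinct sequences among 7, and 47 of the 60 positions were the same in every copy. In each of the 7 sequences AGGAAA stood before the match and its reverse complement after it, within 27 bases on either side. Over all Runx3 peaks, 18638 TGTGGT matches on either strand had that much sequence on both sides inside the peak. AGGAAA in this arrangement stood around 0.0697% of them, and on either strand at any place of the window near 7.06%. Both shares include the matches of the 6 group A copies with a peak, so they are not a background apart from group A. This arrangement was looked up after the sequences were seen, and the 7 copies stem from duplication, so they are not separate occurrences. The match lay 27.5 to 140.5 bases from the midpoint of the peak in the 6 copies with a peak.

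In the search with each peak as the query, the 7 copies of group A had 81.1 to 97.9% identity to a peak on another copy. This measure differs from that of the aligned pairs above. By the search, more diverged copies of the same stretch, with 70.1 to 79.5% identity to the peaks, lay upstream of Klra4, Klra11, Klra8, Klra14, Klra23 and Klra2. None of these 6 overlapped a Runx3 peak, although all 6 touched an H3K4me1 region. At the place aligned with the shared TGTGGT, 0 of 6 read TGTGGT. The sequences of the 3 list members and of Klra23 are given with the 6 aligned letters in capitals, on the minus strand of mm9.
Klra4, chr6:130025313-130025372: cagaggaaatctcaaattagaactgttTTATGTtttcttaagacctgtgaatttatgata
Klra8, chr6:130090317-130090376: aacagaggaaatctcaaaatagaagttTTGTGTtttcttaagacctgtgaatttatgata
Klra23, chr6:130265567-130265626: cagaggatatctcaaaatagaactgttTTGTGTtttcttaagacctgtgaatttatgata
Klra2, chr6:131227741-131227800: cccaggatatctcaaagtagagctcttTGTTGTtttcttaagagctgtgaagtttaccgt

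A RUNX match at another place was present in 5 of these 6 diverged copies. Their share of unique positions, that is of positions whose 40-base sequence occurs once in the genome, was 50.3 to 100%, which overlapped the 55.4 to 96.5% of the 7 close copies. The labels give reads of 40 bases, the methods also slightly longer ones, and only uniquely aligned reads were kept, so a share below 100% marks where the method could not place reads.

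Group B comprised 6 full-length copies with pairwise identities of 90.1 to 95.1%. They lay upstream of the activating receptor genes Klra4 and Klra8, of the pseudogenes Klra11, Klra14 and Gm15854, and of the transcribed gene Klra23. All 6 carried a Runx3 peak and 4 touched an H3K4me1 region, the exceptions being the copies at Gm15854 and Klra14. A tandem pair of RUNX matches, whose starts were 13 bases apart in the alignment, lay inside the peak in all 6. Both matches were kept in 4 copies, and each of the 6 copies kept at least 1. The 59 bases around the pair are shown for the 2 activating genes and the 2 other copies in which the pair varied or was read as TGTGGC, on the minus strand of mm9 with every RUNX match in capitals.
Klra4, chr6:130020919-130020977: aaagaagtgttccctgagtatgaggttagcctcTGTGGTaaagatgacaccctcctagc
Klra8, chr6:130086694-130086752: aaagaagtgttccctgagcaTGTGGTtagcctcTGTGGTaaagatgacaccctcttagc
Klra14, chr6:130116501-130116559: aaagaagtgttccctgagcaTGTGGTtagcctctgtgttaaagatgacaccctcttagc
Klra23, chr6:130262073-130262131: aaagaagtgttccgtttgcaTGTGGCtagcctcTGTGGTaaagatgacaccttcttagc

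Klra4 kept only the second match of the pair and Klra14 only the first. The middle of the 59-base stretch lay 414.5 bases from the peak midpoint at Klra4, against 17.5 to 169 in the other copies. Another match, in the opposite orientation, was aligned in all 6 copies but lay inside the peak in only 3. It lay 37 bases from the peak midpoint at Klra4, 212.5 at Klra23 and 237 at Klra8. None of these stretches overlaps an annotated exon.

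Group B had 10 further relatives at 70.1 to 83.3% identity to the peaks, 3 partial and 7 diverged. The partial ones, found at 80% identity or more at Klra17, Klra1 and Klra2, had 291, 600 and 235 bases. The 600 bases at Klra1 are its whole Runx3 peak, of which 51 to 52% matched the full-length copies at 80% identity or more. This partial relative at Klra1 went on into a diverged stretch and was read over 1342 bases in all. All 10 touched an H3K4me1 region, but only 1 of them, upstream of Klra1, overlapped a Runx3 peak (chr6:130369063-130369662, outside the windows). At least 1 match of the pair was kept by 7 of the 10, including the one with the peak. The 6 that kept a match and had no peak lay upstream of Klra17, Klra5, Klra6, Klra10, Klra3 and Klra2, with unique shares of 77.4 to 100%, and the Klra2 relative kept both matches. At Klra5, Klra6, Klra10 and Klra3 the alignment had a gap at the second match, so only the first was read there in full. The other 3 relatives, upstream of Klra9, Klra7 and Klra1, kept neither match and had no peak.

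The activating gene Klra4 had 2 further peaks in neither group. The peak 10.97 kb upstream of its start (chr6:130027948-130028565) held 1 RUNX match, and 6 copies of it with 84.2 to 92.0% identity lay upstream of Klra17, Gm15854, Klra11, Klra8, Klra14 and Klra23. None of the 6 carried a Runx3 peak, 1 touched an H3K4me1 region, and 0 of 6 kept the match. The copy at Klra17, with a unique share of 96.6%, held a RUNX match at another place. The sequence at Klra4 and the copies at the members Klra8 and Klra17 are shown on the minus strand of mm9, where the capitals mark the match, written as its reverse complement ACCACA, and the letters aligned with it.
Klra4, chr6:130028335-130028394: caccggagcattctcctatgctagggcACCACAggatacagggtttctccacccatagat
Klra8, chr6:130093837-130093896: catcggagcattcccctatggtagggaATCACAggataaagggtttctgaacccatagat
Klra17, chr6:129844400-129844459: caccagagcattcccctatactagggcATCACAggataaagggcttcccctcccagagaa

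The other such peak lay 0.565 kb upstream of the Klra4 start and had 2 copies of 85.5 to 89.3% identity. Neither copy carried a Runx3 peak and 0 of 2 kept the match, but 1 held a RUNX match elsewhere.

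The families were chosen because they held a peak, and the position read in each was that of a match in a copy with a peak, so these counts describe the copies and are not a test of the match. Copies under 80% identity were not examined for the 2 Klra4 peaks.

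**Figure D1:**
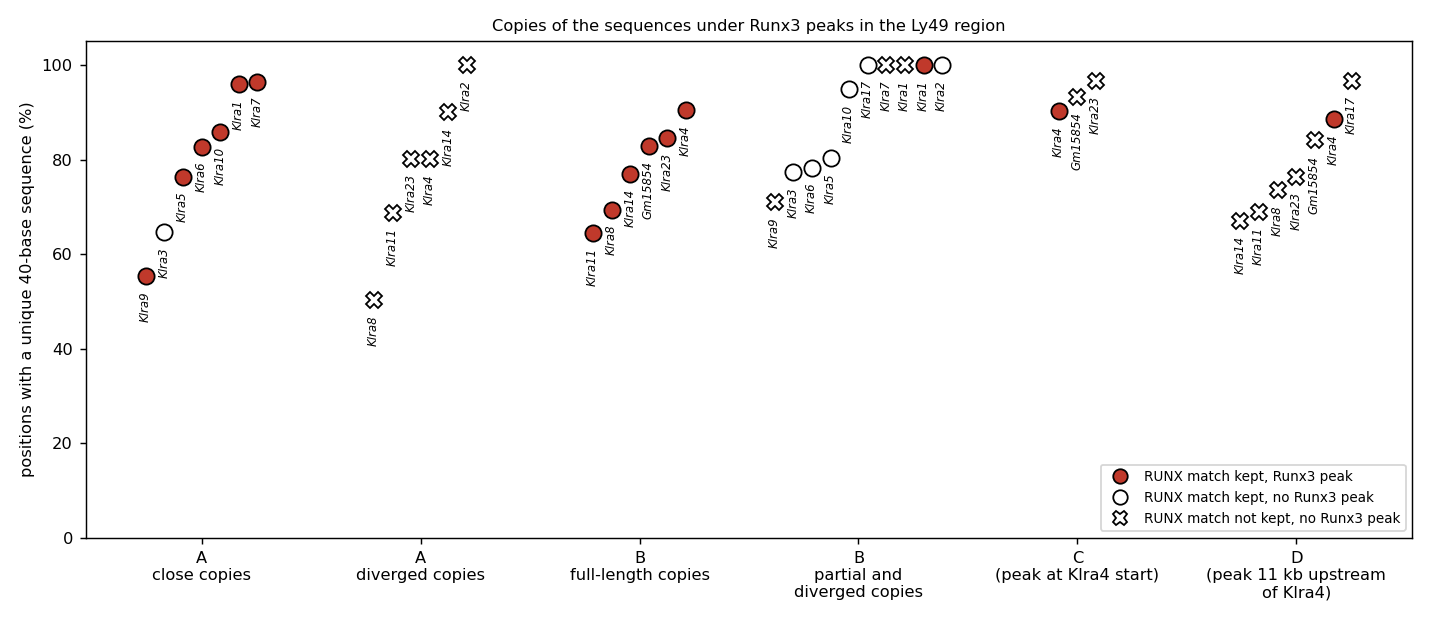
Each point is 1 copy of a sequence found under a Runx3 peak, labelled by the gene it lies upstream of, and the vertical axis is the share of its positions with a unique 40-base sequence (%). Families C and D are the 2 further Klra4 peaks. Filled circles have a Runx3 peak and keep the RUNX match of their family (for B at least 1 of the pair), open circles keep it and have no peak, and crosses have neither. The open circles are the Klra3 copy of group A and 6 of the 10 partial and diverged copies of group B, and the 6 diverged copies of group A are all crosses.

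The copy at Klra3 (Ly49C) was the exception in group A. It kept the match and had a unique share of 64.6%, whereas the Klra9 copy had 55.4% and a peak. Over the 40-base reads that could cover the printed stretch, 38.4% were unique at Klra3 and 35.4% at Klra9. H3K4me1 covered 287 of the 943 bases of the Klra3 copy and did not reach the match, while in the other 6 copies of group A the match lay inside an H3K4me1 region.

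Runx3 peaks were then counted by gene. A peak lay in the window of 10 of 10 Ly49 genes, against 51.0% of all protein-coding genes with the same window. Neighbouring windows shared peaks, so the 20 assignments stood for 17 distinct peaks. By window the density was 1.59 to 6.30 peaks per 100 kb in the 10 genes, against a median of 0.451 and an upper quartile of 2.35 for all protein-coding genes. Klra4, Klra8, Klra2 and Klra9 lay above that quartile and the other 6 below it. The window of Klra4 includes the group A peak of Klra6, and that of Klra8 the group B peak of Klra11. For Klra3 the only peak in the window is the group B peak of Klra23. In the gene bodies alone, 3 of 10 had a peak, against 33.6% of all genes, which is about the same share. The members are neighbours on 1 chromosome and cannot be read as separate trials.

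The gene bodies with a peak were those of Klra5, Klra1 and Klra9. The annotated body of Klra9 (Ly49I) rests on 1 automatic transcript of 156.8 kb that runs across Klra7, Klra10 and Klra3. With its 2 manually annotated transcripts, which span 14.4 kb, Klra9 had 0 peaks in the body and 2 in the window in place of 5.

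**Figure D2:**
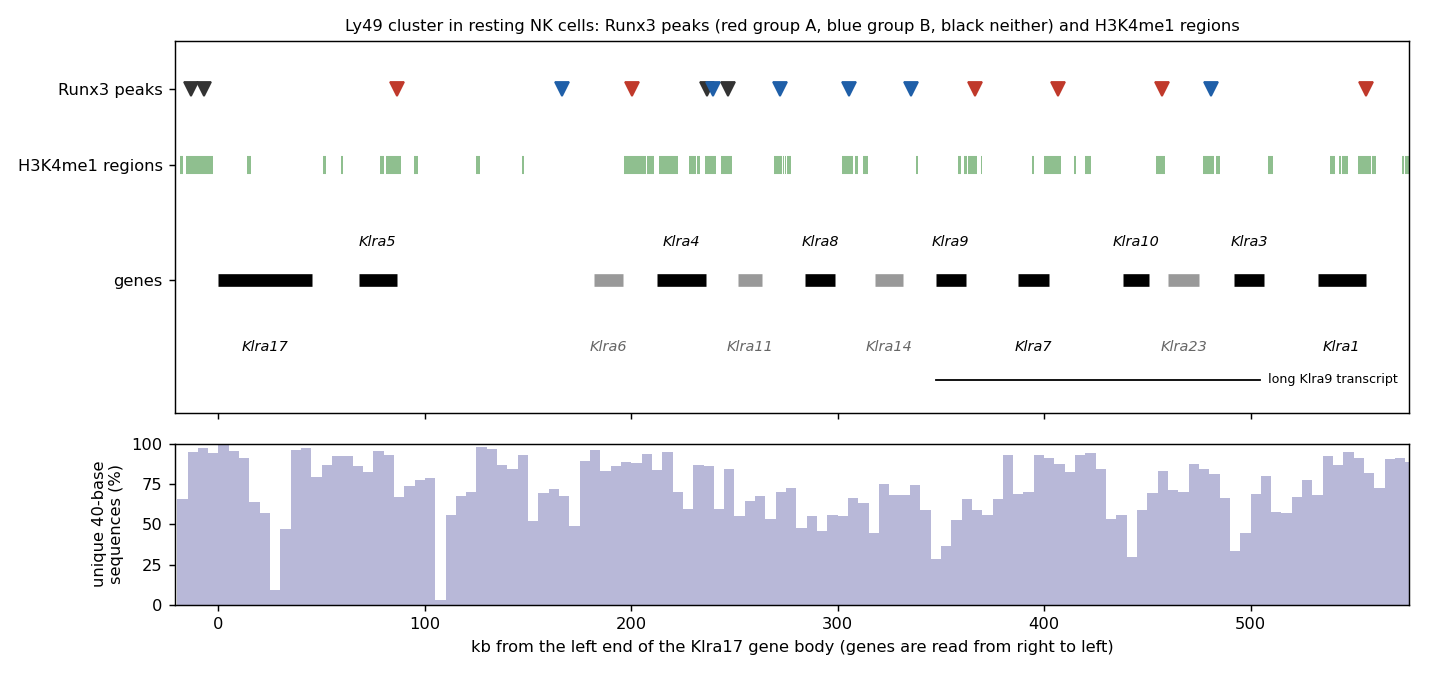
The upper panel shows the cluster of 9 Ly49 genes (black), neighbouring Klra genes (grey), H3K4me1 regions (green) and Runx3 peaks (triangles), against the distance in kb from the left end of Klra17, and the lower panel the share of positions with a unique 40-base sequence in bins of 5 kb. Klra9 is drawn by its manual transcripts. Most peaks lie between the genes, and group A (red) and group B (blue) peaks recur along the cluster.

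The distance of the peaks from the start codon was nearly the same across group A and differed between the genes of group B. In group A the midpoints of the peaks lay 6.19 to 6.49 kb upstream of the start codon. At Klra5 (Ly49E, chr6:129867452-129868252) the value was 6.37 kb, at Klra9 (chr6:130147298-130147978) 6.32 kb and at Klra7 (Ly49G, chr6:130187332-130188319) 6.19 kb. At Klra10 (Ly49J, chr6:130237879-130238595) it was 6.30 kb and at Klra1 (Ly49A, chr6:130336572-130337554) 6.38 kb. In group B the peak at Klra4 (chr6:130019907-130021160) lay 5.21 kb and that at Klra8 (chr6:130086215-130086948) 8.40 kb upstream of the start codon.

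Klra5 and Klra1 have annotated transcripts that begin at the group A stretch, and there the peak midpoint lay 0.184 and 0.171 kb upstream of the start. The shared RUNX match itself lay 99.5 bases upstream of the Klra5 start and 198.5 bases upstream of the Klra1 start. The peaks at Klra9, Klra7 and Klra10 lay 4.51, 4.49 and 6.29 kb upstream of the nearest annotated start, since no start is annotated at their copies. Together with the peak at the Klra4 start, 3 of the 17 peaks had a midpoint under 1 kb from a member's start and 6 under 5 kb.

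Klra17 (Ly49Q), known from plasmacytoid dendritic cells and other myeloid cells, had no peak on its upstream side. Its 2 peaks lay 6.45 and 12.8 kb beyond its 3′ end (chr6:129773689-129774721 and chr6:129767452-129768396) in a single H3K4me1 region of 13111 bases, and the nearest peak to its start was the Klra5 peak at 41.2 kb. Klra2 (Ly49B), known from myeloid cells, had 2 peaks 14.9 and 16.7 kb upstream of its start (chr6:131211826-131212725 and chr6:131213795-131214416) in 1 H3K4me1 region of 4894 bases. The peak nearest to a start of Klra3 was that of group B at Klra23, 25.6 kb downstream of it. The 4 peaks of Klra17 and Klra2 belonged to neither group, and the unique share was at least 94.9% in each.

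**Figure D3:**
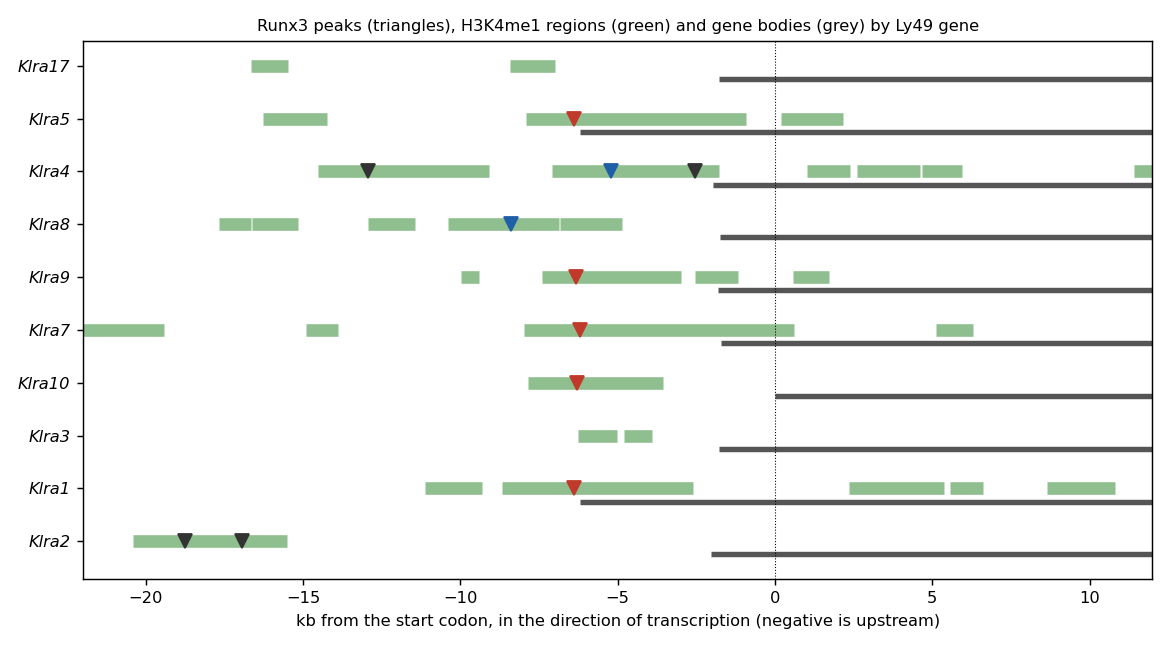
Each row is 1 Ly49 gene, with H3K4me1 regions in green, the gene body in grey and Runx3 peak midpoints as triangles (red group A, blue group B, black neither), against the distance in kb from the start codon in the direction of transcription. The red triangles of Klra5, Klra9, Klra7, Klra10 and Klra1 stand within 6.19 to 6.38 kb upstream, Klra3 has none there, and the black triangles of Klra2 lie farther upstream.

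An H3K4me1 region lay in the window of 10 of 10 genes, against 74.0% of all protein-coding genes, and in the body of 6 of 10, against 63.2%. The 47 regions covered 141.8 kb or 25.3% of the merged windows. For single windows of all protein-coding genes the median was 7.37% and the interquartile range 0 to 17.3%. Klra4 stood highest at 61.0% of its window, above 99.3% of all genes, and 60.3% of its body was marked. Regions of 10454 and 3562 bases in that window lie between Klra6 and Klra4, the wider one on the group A stretch of Klra6. The other activating gene, Klra8, had 30.4% of its window and 0% of its body. Regions of 3684, 816, 513 and 2227 bases in its window lie between Klra11 and Klra8, the widest on the group B stretch of Klra11.

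Among the inhibitory genes Klra1 (25.3%), Klra7 (25.1%) and Klra5 (23.3%) had similar window shares. They were followed by Klra9 (18.0%, or 15.5% by its manual transcripts), Klra3 (16.7%) and Klra10 (13.6%). Regions of 4941 and 2004 bases in the window of Klra3 lie between Klra23 and Klra3, the wider one on the group B stretch of Klra23. In the gene bodies Klra1 and Klra5 had 43.0% and 39.03%, Klra7 23.7% and Klra9 20.6% (12.6% by its manual transcripts). The bodies of Klra3, Klra10, Klra8 and Klra2 touched 0 regions, and their unique shares were 55.5%, 46.2%, 52.5% and 64.5%. The bodies of Klra1, Klra5, Klra7 and Klra4, with a unique share of 91.5%, 90.5%, 79.3% and 79.2%, were all marked. Klra9, with the lowest unique share by its manual transcripts (43.8%), was marked too, by 2 regions. The part of unique alignment in these differences was not tested. Klra17 had 22.4% of its window but 4.25% of its body, and Klra2 had 7.18% of its window, above 49.4% of all genes.

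**Figure D4:**
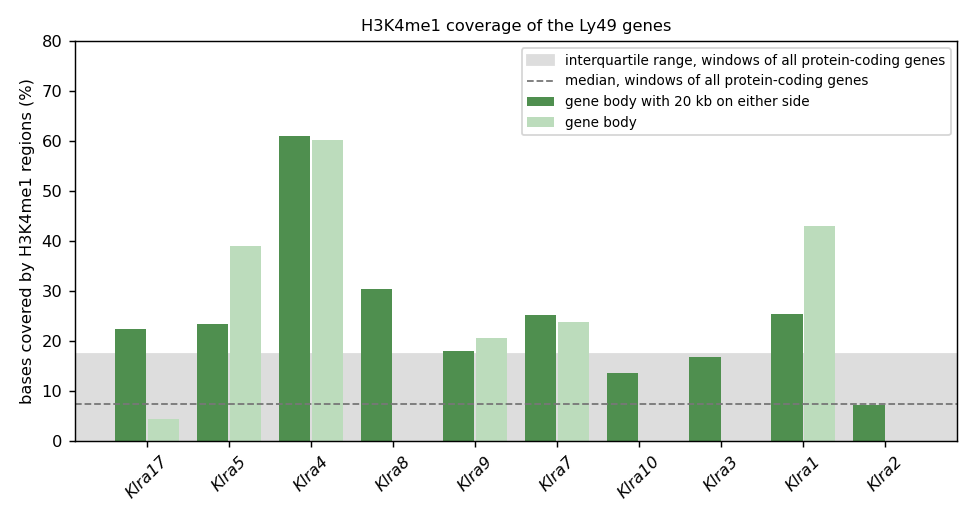
Bars give the share of bases covered by H3K4me1 regions (%) in the window (dark) and body (light) of each Ly49 gene in genomic order, with Klra9 by its whole annotated record. The grey band and dashed line give the interquartile range and median for the windows of all protein-coding genes. Klra4 stands at 61.0%, and 4 genes have no covered base in the body.

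Of the 17 peaks, 16 overlapped an H3K4me1 region (94.1%, 95% Wilson interval 73.0 to 99.0%), against 95.7% of all Runx3 peaks. The exception was the group B peak at Klra14 (chr6:130116275-130116732), which was also the narrowest of the 17. A RUNX match on either strand was held by 17 of 17 (interval 81.6 to 100%), against 93.3% of all peaks and 50.9% of 762 tiles of 700 bases in the merged windows that held no peak. In the central 200 bases of the peaks the order turned, with a match in 47.1% of the 17, against 69.2% of all peaks. TGTGGT alone was held by 16 of 17, against 65.5% of all peaks and 35.2% of the tiles. The ETS consensus (NGGAAGT with A or C at the N, on either strand) was held by 3 of 17, against 41.8% of all peaks and 13.0% of the tiles, and the 3 were those of Klra17 and 1 of Klra2. Intervals cover counting error only, and copies of 1 sequence are not independent.

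The 17 peaks were 458 to 1254 bases wide with a median of 729, and 11 were narrower than the median of the whole list, 825. Their unique share had a median of 90.3% and a range of 48.1 to 100%. It was below 95% in 12 of the 17, against 10.02% of all Runx3 peaks. Over the merged windows 71.6% of positions were unique, so a peak in the remaining positions could have been missed, and absence of a peak is not absence of binding. The part of unplaced reads in these widths was not tested. The peak closest to the limit of the window rule was that of Klra2, 16.4 kb from the gene body, and the nearest one outside lay 32.2 kb from Klra1 (chr6:130369063-130369662), the relative of group B described above.

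Genes around the Ly49 receptors and in their pathway were counted with the same window. Of all protein-coding genes, 51.0% had a Runx3 peak and 74.0% an H3K4me1 region in that window. In the body the shares were 33.6% and 63.2%. The lists are short and were not drawn at random. The 4 other Klra genes Klra6, Klra11, Klra14 and Klra23 each had at least 2 peaks and 0 in the body, so all of their peaks lay beside the bodies. Of 14 neighbouring lectin-like receptor genes 14 had a peak and 14 an H3K4me1 region, with 9 and 13 in the body. Klrb1b and Klrb1c, which encode NKR-P1 receptors, each had 12 peaks, and Klrd1, which encodes the CD94 chain, had 9, in a range over the 14 of 1 to 12. The windows of Klrb1b and Klrb1c overlap, so a peak can count for both.

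Of the signalling partners all 9 genes found had a peak and an H3K4me1 region, against 51.0% and 74.0% of all protein-coding genes. Among them were Fyn (15 peaks), a Src family kinase, and Tyrobp (9 peaks), which encodes DAP12. Hcst, which encodes the adaptor DAP10, and Inpp5d, which encodes the phosphatase SHIP-1, had 8 each. These counts were not scaled by gene length. The bodies of Fyn (chr10:39088661-39285187) and Inpp5d (chr1:89516887-89617082) are far longer than those of Tyrobp and Hcst. Tyrobp and Hcst lie side by side (chr7:31198807-31202596 and chr7:31202732-31204873). Their windows nearly coincide, so their counts are not separate. The class I ligand genes H2-K1 and H2-D1 had 4 peaks each and B2m 2. All 8 transcription factor genes listed had a peak, against 51.0% of all protein-coding genes. They included Runx3 itself (10), Nfkb1 (9), Tbx21 (8), which encodes T-bet, and Tcf7 (7), which encodes TCF-1, again not scaled by gene length.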

How the data were processed

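The authors aligned reads (40 bases per the labels, slightly longer ones also in the methods) to mm9 with ELAND (CASAVA 1.7 in the submitters' processing notes), kept unique alignments, joined biological repeats and ran MACS against NIS, as the methods state. They deposited region coordinates only, with no score, count or p-value, so no unit of signal was available. The labels describe an NKp46 sort and the methods a DX5 sort, and the files do not settle which. Coordinates are 1-based. Genes, transcripts and start codons came from GENCODE vM1 on the same build. Copies were searched with blastn 2.17.0 between chr6:129700001 and chr6:131300000 and aligned with MAFFT 7.526. The 40-base sequences were counted exactly on both strands of the whole genome. Counting, uniqueness and copy search were tested on simulated data. The members, gene lists and copy families were chosen with earlier results of these data known. All members, every Runx3 peak in their windows and up to 4 genes of each list were to be named. With 1 sample per antibody no test between groups was made, and alternatives were run for flanks, overlap rule, widths, motif and identity. The list of signalling partners had 10 genes, of which Syk was not found under this symbol.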

Additional observations from a re-analysis of the deposited data

How the results depend on the processing

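For 9 results 54 alternatives were run, 9 of them (Klra9 by its manual transcripts) chosen after seeing the data. A count stayed within 1.5 times its value, or a share within its 95% binomial interval, in 30 of them. For H3K4me1 cover and unique positions each base was counted as a trial, though neighbouring bases are not independent. Those intervals were therefore very narrow, and a change from 71.6% to 71.8% unique fell outside. With the gene body alone, 3 genes had a Runx3 peak, 6 peaks were counted, 6 genes had an H3K4me1 region, and 5 peaks had a similar sequence. With 5 kb on either side the values were 5 genes, 8 peaks and 8 peaks with a similar sequence. A Runx3 peak within 5 kb was found for 39.7% of all protein-coding genes. The share covered by H3K4me1 was 21.0% in the bodies, 22.6% with 5 kb, 22.9% with 50 kb and 21.0% with only the wider H3K4me1 regions. Peaks overlapping H3K4me1 were 100% in the bodies, with 5 kb and with only the wider Runx3 peaks. The wider Runx3 peaks alone gave 6 genes (against 35.1% of all protein-coding genes), 6 peaks, 1 peak near a start and 3 peaks with a similar sequence. In the central 200 bases of the peaks the RUNX match was held by 47.1%, against 69.2% of all Runx3 peaks. Within 5 kb of a start there were 6 peaks. Unique positions were 72.0% in the bodies, 71.8% with 5 kb, 72.9% with 50 kb and 63.9% for 32-base sequences. Leaving out repeat-masked positions was not run, since the genome sequence used here carries no masking. The methods give the number of aligned reads for each antibody, but the lists hold no counts. No limit set by depth can therefore be stated for single regions. No paired analysis was possible because each antibody had 1 sample and no result came from a test.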
